A study of Mus musculus with 25 samples.

Results

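The miR-26 family in mouse consists of mmu-miR-26a-5p and mmu-miR-26b-5p (miR-26a-5p and miR-26b-5p below), the guide arms made from 3 intronic hairpins. Both were chosen by name, as 2 of the 1493 entries in a table of mature miRNA counts, and both passed the filter that left 391 entries for testing. The counts came from small extracellular vesicles (sEVs, membrane-bound particles released by cells) isolated from liver tissue of C57BL/6J mice, all wild type. The ages were 1 week, 6 weeks, 6 months, 12 months and 14 months, with 5 mice and 1 library per mouse at each age and 25 libraries in all. The labels name no transgene and no treatment, and all livers were frozen and then dissociated with a tumour dissociation kit before ultracentrifugation. Both sexes were said to be used in equal shares, which 5 mice per age cannot give exactly. The sex of each mouse was not given, so the balance of the sexes at each age is unknown. The batch label repeats the age, so age and any difference in handling cannot be told apart.

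A miRNA guide strand sits in an Argonaute protein and pairs through its seed, bases 2 to 8, with sites in target mRNAs, which are then destabilised or translated less. The miR-26 hairpins lie in genes of small phosphatases of the RNA polymerase II C-terminal domain (Ctdspl, Ctdsp2 and Ctdsp1), and miRNA and phosphatase are known to act together against cell cycle entry. Known targets include the Polycomb methyltransferase Ezh2 and G1 cyclins, MYC represses the miR-26 genes, and miR-26a is known to be low in liver cancer and to slow MYC-driven liver tumours in mice when delivered back.

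The mature sequences are shown because both members share a seed and differ by so few bases that correct counting depends on them. RefSeq sequences of GRCm38.p6 were matched by name for both, and capitals mark the seed.
miR-26a-5p: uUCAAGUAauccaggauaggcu
miR-26b-5p: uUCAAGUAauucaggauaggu
miR-26a-5p has 22 bases and miR-26b-5p has 21. Counted from 1 at the 5′ end of miR-26a-5p, the substitutions in miR-26b-5p were C11U and C21U, and 19 of the 21 compared bases were identical. Of the 1679 mature mouse miRNA names in the RefSeq table, only these 2 had the seed UCAAGUA. The number of mismatches allowed in mapping was not given in the sources used here. Without mismatches, a read that covers position 11 matches 1 member alone, while allowed mismatches could mix the counts of both members and so their ratio. Some other pairs of related miRNAs had nearly equal counts. Summed over the libraries of 1 week, miR-29a-3p had 16408 counts against 16505 for miR-29c-3p. For miR-19a-3p the sum was 5943, against 5918 for miR-19b-3p. The counts of miR-26a-5p and miR-26b-5p differed by at least 1.59 on the log2 scale in every library. How far reads were mixed between members of these pairs or of the miR-26 family was not tested.

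The 3 hairpins follow with the guide arm in capitals, because the guide of miR-26a-5p is made by 2 genes whose shares cannot be separated from its count.
Mir26a-1: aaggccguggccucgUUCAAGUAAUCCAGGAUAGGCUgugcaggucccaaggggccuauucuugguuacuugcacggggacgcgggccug
Mir26a-2: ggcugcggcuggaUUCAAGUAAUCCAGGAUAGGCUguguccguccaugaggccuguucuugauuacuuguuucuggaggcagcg
Mir26b: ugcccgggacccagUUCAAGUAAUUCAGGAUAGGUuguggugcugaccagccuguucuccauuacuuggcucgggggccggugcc
All 3 lie on the plus strand, as do their host genes. The hairpin of Mir26a-1 is in an intron of Ctdspl at chr9:119031796-119031885, with its guide at chr9:119031811-119031832. The hairpin of Mir26a-2 is in an intron of Ctdsp2 at chr10:126995530-126995613, with its last base on the edge of the next exon, and its guide is at chr10:126995543-126995564. The hairpin of Mir26b is in an intron of Ctdsp1 at chr1:74394310-74394394, with its guide at chr1:74394324-74394344.

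miR-26b-5p was among the most abundant miRNAs of the vesicles. It held 2.73% ± 0.459 of all counts (SD, n = 25), behind only miR-122-5p, miR-148a-3p, miR-126a-3p and miR-192-5p, and its rank within a library was between 4 and 7. miR-26a-5p held 0.707% ± 0.176 (SD, n = 25) and ranked between 15 and 19 in the 20 libraries of 6 weeks or older (adult libraries) and between 19 and 27 at 1 week. The members are of nearly equal length, but small RNA libraries recover different sequences with different efficiency, so their relative abundance is read across ages and not as a ratio of molecules. Library totals ran from 641579 to 6888928 counts, so each member had at least 4173 counts in every library and counting error was small beside the spread between mice.

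Levels below are TMM-scaled counts per 1000000 (CPM), which set each library's counts against a total corrected for differences in composition. At 1 week miR-26a-5p had 2584, 2424, 3322, 2769 and 2254 CPM in mice 1, 3, 4, 5 and 27. At 6 weeks it had 7956, 6813, 6546, 6688 and 8528 CPM in mice 6 to 10. The lowest library of 6 weeks thus lay well above the highest of 1 week. At 6 months the values were 9604, 7939, 5739, 11908 and 8548 CPM in mice 11 to 15, the widest spread of any age. At 12 months miR-26a-5p had 8778, 6753, 8821, 11566 and 9672 CPM in mice 16 to 20. At 14 months it had 8699, 8752, 11357, 11054 and 10951 CPM in mice 21 to 25. The adult ages overlapped each other, except that every library of 14 months was above every library of 6 weeks.

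miR-26b-5p had 14196, 12564, 17583, 16562 and 10412 CPM at 1 week in mice 1, 3, 4, 5 and 27. At 6 weeks it had 25695, 24679, 24150, 22833 and 30919 CPM in mice 6 to 10. Here too the ages did not overlap, with a narrower gap between them than for miR-26a-5p. At 6 months miR-26b-5p had 36520, 29832, 19482, 38365 and 33391 CPM in mice 11 to 15. At 12 months it had 29495, 29137, 34365, 45602 and 38412 CPM in mice 16 to 20. At 14 months the values were 32613, 29905, 34265, 41349 and 48376 CPM in mice 21 to 25. Mouse 13 was the lowest adult library for both members, and all adult ages overlapped each other for miR-26b-5p.

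**Figure D1:**
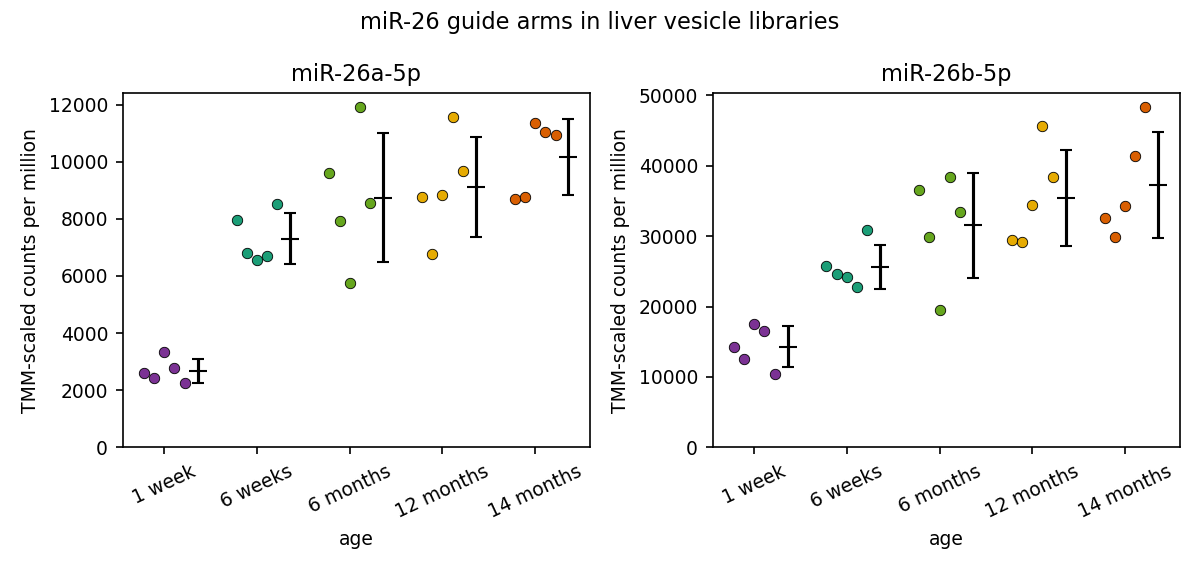
TMM-scaled CPM of miR-26a-5p and miR-26b-5p in each of the 25 libraries by age, with the mean and SD of 5 mice per age. All 20 adult libraries lie above all 5 libraries of 1 week for both members. The adult ages overlap, except that miR-26a-5p at 14 months lies above 6 weeks in every library.

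By mean, both members had the same order of ages. In libraries of 1 week miR-26a-5p averaged 2671 ± 411 CPM, in those of 6 weeks 7306 ± 883, in those of 6 months 8748 ± 2262, in those of 12 months 9118 ± 1739 and in those of 14 months 10163 ± 1321 (SD, n = 5 each). The averages of miR-26b-5p were 14263 ± 2917 CPM in libraries of 1 week, 25655 ± 3118 in those of 6 weeks, 31518 ± 7469 in those of 6 months, 35402 ± 6861 in those of 12 months and 37302 ± 7499 in those of 14 months (SD, n = 5 each). Only the step between 1 week and 6 weeks separated neighbours in this order beyond their spread. An edgeR quasi-likelihood F test over the 5 ages gave F = 37.1 for miR-26a-5p (adjusted p = 1.39e-09) and F = 18.2 for miR-26b-5p (adjusted p = 9.5e-07). The same test called 75.4% of the 391 entries at an adjusted p of 0.05, so 2 of 2 members called is little beyond the background. With tested entries restricted to a mean of at least 50 CPM, the F of miR-26b-5p was 2.94 (edgeR adjusted p = 0.0507). In every alternative setting the F test called at least 119 entries. The comparison of patterns below had 141 entries with a mean of at least 50 CPM. miR-26b-5p thus did not pass at that filter where most entries did.

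Both members rose between 1 week and 6 weeks, and miR-26a-5p rose more. At 6 weeks against 1 week the log2 fold change was 1.45 ± 0.17 for miR-26a-5p (SE), 2.74-fold, with a 95% interval of 1.11 to 1.79 and an edgeR adjusted p of 2.47e-08. For miR-26b-5p it was 0.85 ± 0.18, 1.80-fold, with an interval of 0.48 to 1.21 and an edgeR adjusted p of 0.000139. This contrast called 71.9% of entries in either direction, 35% as higher and 36.8% as lower, and in 28.6% of entries every library of 6 weeks was above every library of 1 week. The size of both changes moved with the scaling and the filter. With library totals alone the log2 fold changes were 0.80 for miR-26a-5p and 0.20 for miR-26b-5p (edgeR adjusted p = 0.147 for miR-26b-5p). With the filter at 50 CPM they were 0.74 and 0.13 (edgeR adjusted p = 0.447 for miR-26b-5p). That filter left fewer entries to test, of which 116 were called.

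The scaling also moved the whole table. The TMM factors were 0.719 to 1.08 in adult libraries and 1.30 to 1.79 at 1 week. The median log2 fold change of all entries at 6 weeks against 1 week was 0.12 with TMM, and other factors moved it by between -0.66 (library totals) and 0.50 (upper quartile). Of all entries, 137 were called higher and 144 lower with TMM, 88 and 178 with library totals alone, and 184 and 120 with upper-quartile factors. Set against the median of all entries under the same scaling, the log2 fold change was 1.33 to 1.36 for miR-26a-5p and 0.72 to 0.75 for miR-26b-5p over 5 scalings. A scaling factor shifts all entries nearly alike, and subtracting the median removes that shift. The narrow range is thus built in and is no test of the scaling. Both members had a positive log2 fold change in every setting plotted.

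**Figure D2:**
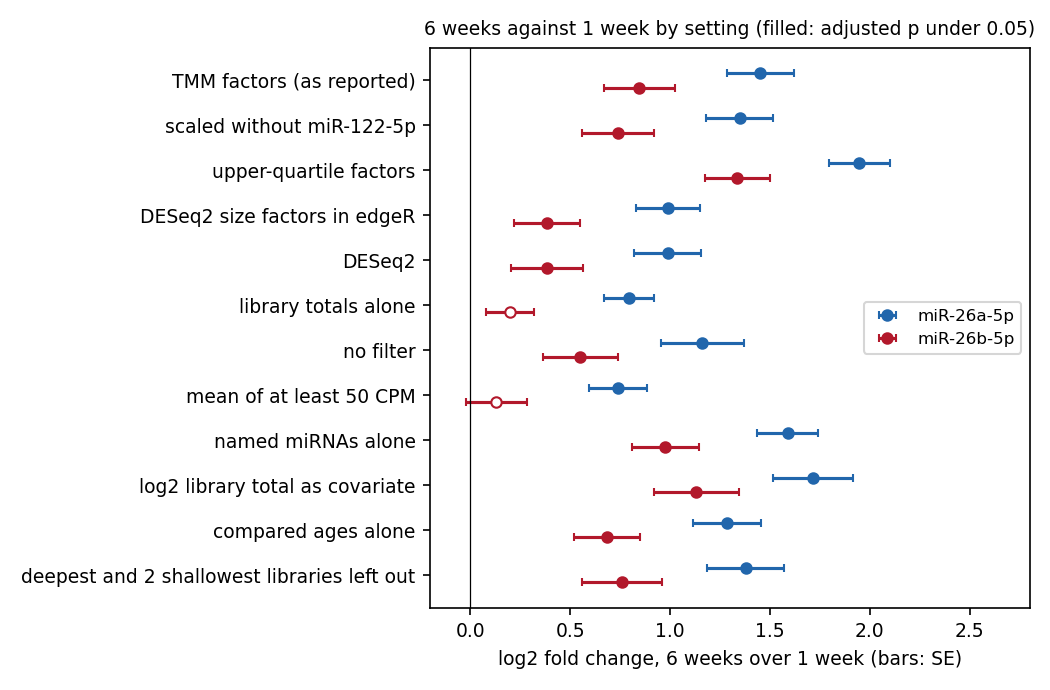
Log2 fold change of miR-26a-5p and miR-26b-5p at 6 weeks over 1 week under TMM and 11 other settings, with SE bars, and filled points for an adjusted p under 0.05. miR-26a-5p lies between 0.74 and 1.95 throughout, while miR-26b-5p drops to 0.20 with library totals alone and to 0.13 with the filter at 50 CPM, both open points.

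Each later age differed from 1 week in the same direction. The log2 fold changes of miR-26a-5p were 1.71 at 6 months, 1.77 at 12 months and 1.93 at 14 months against 1 week, each with an SE of 0.17. Those of miR-26b-5p were 1.14, 1.31 and 1.39 at the same ages, each with an SE of 0.18. All 6 passed an edgeR adjusted p of 0.05, where 74.7% of entries were called at 6 months, 71.6% at 12 months and 72.9% at 14 months. Every library of these ages was above every library of 1 week for both members, as in 29.2% of entries at 6 months, 24% at 12 months and 24.8% at 14 months. These comparisons share the libraries of 1 week with each other.

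Cell type markers are given for the same contrast, in which 35% of entries were called higher and 36.8% lower. At 6 weeks against 1 week the 5 leukocyte markers summed to 0.207 to 0.296% of counts, against 0.712 to 0.954%, with 4 of 5 lower. The 5 markers of biliary and other epithelium summed to 0.0362 to 0.0482% at 6 weeks, against 0.137 to 0.211% at 1 week, with 5 of 5 lower, and the 4 erythroid markers to 0.0156 to 0.0505%, against 0.0474 to 0.132%, with 3 of 4 lower. The 2 tested of 3 muscle markers fell, with summed shares of all 3 of 0.000156 to 0.00069% at 6 weeks, against 0.00754 to 0.173% at 1 week. The 4 hepatocyte markers, miR-122-5p among them, summed to 66.2 to 71.6% at 6 weeks, against 64.3 to 74.4% at 1 week, with 4 of 4 higher by TMM. Of 2 endothelial markers 1 was higher, as were 2 of 5 of stellate and smooth muscle cells, and no marker was at 0 in every library of either age. The part of this shift in the miR-26 result was not tested, and fewer vesicles from a cell type cannot be told apart from less miRNA per vesicle.

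The balance between the members differed between ages in a way that no scaling affects, because both counts come from the same library. For each count of miR-26b-5p, libraries of 1 week had 0.190 ± 0.0180 counts of miR-26a-5p, those of 6 weeks 0.285 ± 0.0160, those of 6 months 0.278 ± 0.0233, those of 12 months 0.258 ± 0.0241 and those of 14 months 0.277 ± 0.0386 (SD, n = 5 each). As a share of the family, miR-26a-5p was between 20.5% and 22.2% on average at each adult age and 15.9% ± 1.26 at 1 week (SD, n = 5). All 20 adult libraries, the lowest at 0.226, lay above the highest library of 1 week at 0.216. At 6 weeks against 1 week the log2 ratio averaged -1.81 ± 0.080, against -2.40 ± 0.14 (SD, n = 5 each), a difference of 0.59 or 1.51-fold. The exact two-sided permutation test gave p = 0.00794, the smallest that 5 against 5 libraries allow, and p = 0.0397 adjusted over 5 comparisons. With 1 library left out the smallest possible p is larger, and the adjusted p was 0.0794. At 6 weeks against 1 week edgeR called 71.9% of entries, and how many other pairs of miRNAs shifted as much was not tested. The other 4 comparisons, all between adult ages, had differences of -0.11 to 0.094 on the log2 scale and adjusted p of 0.437 to 0.643 in the same exact test.

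Among adult ages neither member passed the threshold in any of 6 contrasts. At 6 months against 6 weeks the log2 fold changes were 0.26 ± 0.16 for miR-26a-5p and 0.30 ± 0.18 for miR-26b-5p (SE), with edgeR adjusted p of 0.662 and 0.643 and 1.79% of entries called. At 12 months against 6 months they were 0.060 ± 0.16 and 0.17 ± 0.18, with adjusted p of 0.925 and 0.852. For 14 months against 12 months they were 0.16 ± 0.16 and 0.075 ± 0.18, with an adjusted p of 1 for both. Between 14 months and 6 months they were 0.22 ± 0.16 and 0.24 ± 0.18, with adjusted p of 0.766 and 0.747. In each of these last 3 contrasts edgeR called 0% of entries, and DESeq2 called 0 as well. At an unadjusted p under 0.05 edgeR had 28 entries at 12 months against 6 months, 8 at 14 months against 12 months and 30 at 14 months against 6 months.

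The widest adult span came nearest to the threshold. At 14 months against 6 weeks miR-26a-5p had a log2 fold change of 0.48 ± 0.16 (SE), with a 95% interval of 0.14 to 0.81, an unadjusted p of 0.00726 and an edgeR adjusted p of 0.114. All 5 libraries of 14 months were above all 5 of 6 weeks, as in 5.88% of entries. miR-26b-5p had 0.54 ± 0.18, an interval of 0.18 to 0.90, an unadjusted p of 0.00497 and an edgeR adjusted p of 0.0925, with 4 of 5 libraries of 14 months above every library of 6 weeks. This contrast called 3.84% of entries, and the members were not among them. At 12 months against 6 weeks the log2 fold changes were 0.32 for miR-26a-5p and 0.46 for miR-26b-5p (edgeR adjusted p = 0.278 and 0.125), where 5.63% of entries were called. With only the compared ages in the model, the 14 month contrast passed for both members, at 0.39 and 0.45 (edgeR adjusted p = 0.0320 for each). The 3.84% above belongs to the fit of all ages and is no background for this setting. Over the other settings, 4 to 28 entries were called in the contrast of 14 months against 6 weeks.

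**Figure D3:**
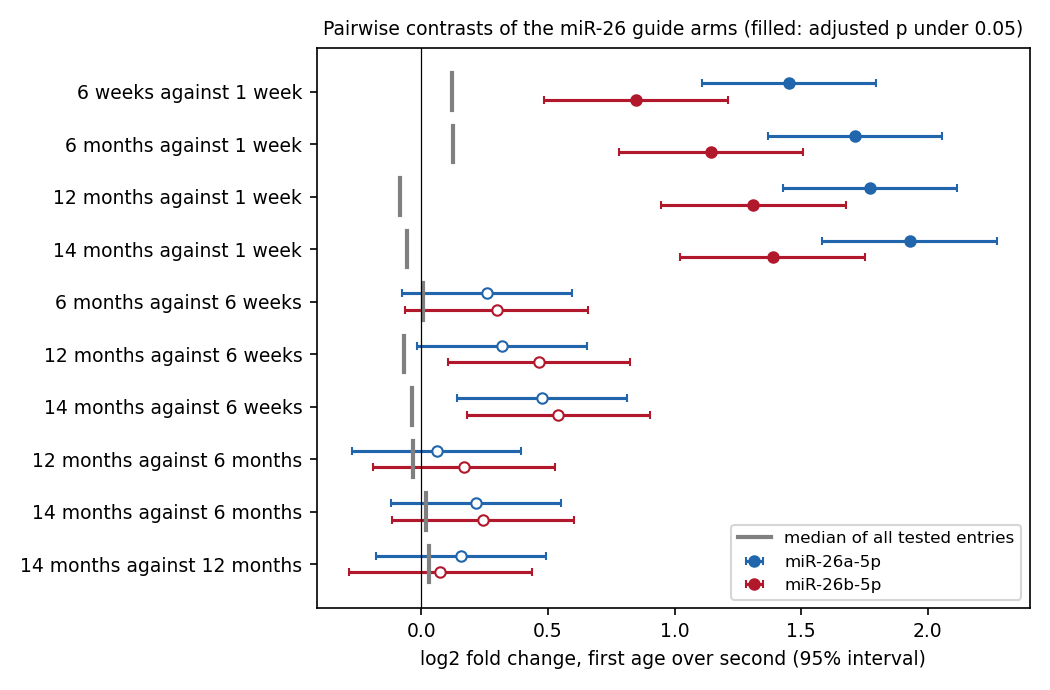
Log2 fold changes of miR-26a-5p and miR-26b-5p in the contrasts between ages, older over younger, with 95% intervals, filled points for an adjusted p under 0.05 and grey bars for the median of all tested entries. All 4 contrasts against 1 week lie above 0 for both members. Of the adult contrasts, that of 14 months against 6 weeks has intervals above 0 before adjustment for both members, and that of 12 months against 6 weeks for miR-26b-5p.

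Levels of both members in adult libraries moved with sequencing depth. All entries of a library share its scaling factor, and how other entries moved with depth was not tested. Over the 20 adult libraries, log2 CPM of miR-26a-5p and log2 library total had Pearson's r = 0.736 (permutation p = 0.00014, adjusted over 4 relations 0.000187) and Spearman's rho = 0.768 (permutation p = 0.00012, adjusted 0.00016). For miR-26b-5p r was 0.799 (permutation p = 1e-05, the smallest that the resamples allow, adjusted 2e-05) and rho 0.857 (permutation p = 2e-05, adjusted 4e-05). Without the 2 libraries farthest from the median depth, of mice 20 and 25, r was 0.739 for miR-26a-5p and 0.748 for miR-26b-5p. Depth also differed with adult age, averaging 2457390 counts at 14 months and 1046872 at 6 weeks. On deviations from the age means, the within-age r was 0.602 for miR-26a-5p and 0.676 for miR-26b-5p. The libraries of 1 week had 2095925 to 6888928 counts and the lowest levels of both members.

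With log2 library total as a covariate, the contrast of 14 months against 6 weeks had log2 fold changes of 0.26 for miR-26a-5p and 0.30 for miR-26b-5p (edgeR adjusted p = 0.758 for each). In the adult libraries alone with the same covariate they were 0.15 and 0.14. The ratio of the members did not pass the test against depth (r = -0.323, permutation p = 0.164; rho = -0.367, permutation p = 0.111), and r was -0.051 without mice 20 and 25.

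**Figure D4:**
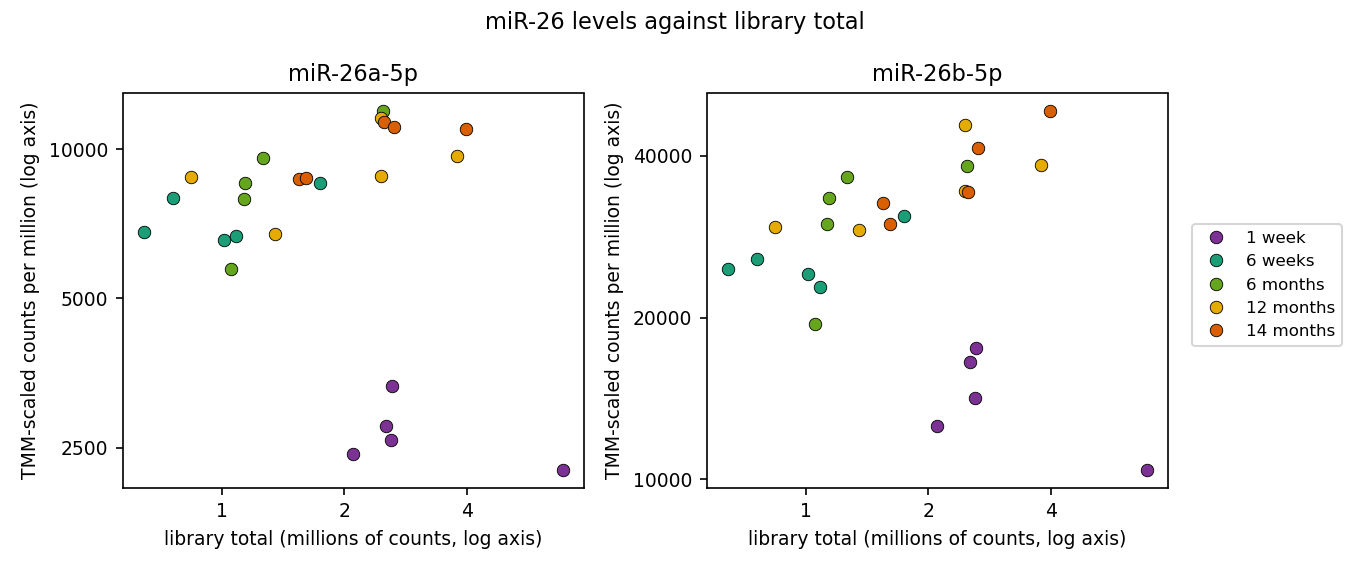
TMM-scaled CPM of each member against library total in counts (axis unit 1000000), both on log axes, 1 point per library coloured by age. Adult libraries with higher totals have higher levels (r of 0.736 and 0.799 over 20 libraries), while the 5 libraries of 1 week lie apart at high totals and low levels.

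The members tracked each other within adult life. Over the 20 adult libraries their log2 CPM had r = 0.910 and rho = 0.908 (permutation p = 1e-05 for each, the smallest possible, adjusted 2e-05 and 4e-05), and r was 0.893 without the 2 libraries farthest from the median of miR-26a-5p, of mice 13 and 14. On deviations from the age means r was 0.877. Both share the library and its scaling factor.

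The share of raw counts held by the family, which uses no scaling factor, averaged 2.61% ± 0.429 in libraries of 1 week, 3.24% ± 0.327 in those of 6 weeks, 3.55% ± 0.471 in those of 6 months, 3.91% ± 0.299 in those of 12 months and 3.86% ± 0.454 in those of 14 months (SD, n = 5 each). None of 5 comparisons passed the exact two-sided permutation test after adjustment. The smallest p was 0.0238 at 6 weeks against 1 week (adjusted p = 0.119), followed by 0.0476 at 14 months against 6 weeks (adjusted p = 0.119). The libraries of 6 weeks and of 1 week overlapped in this share.

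Among the 141 entries with a mean of at least 50 CPM, the patterns most like that of miR-26a-5p over all 25 libraries were those of let-7a-5p (r = 0.963), let-7c-5p (0.960), let-7d-5p (0.959), miR-26b-5p (0.959) and miR-29a-3p (0.959), where the median entry had r = 0.653. The let-7 family is known as a timing miRNA family that appears as cells mature. Its members did not all go 1 way at 6 weeks against 1 week. There let-7a-5p had a log2 fold change of 1.46 and let-7i-5p one of -0.58 (edgeR adjusted p = 9.54e-10 and 0.000922). For miR-26b-5p over all libraries they were miR-26a-5p (0.959), let-7c-5p (0.936), let-7a-5p (0.926), miR-145a-3p (0.924) and let-7e-5p (0.923), with a median of 0.623.

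Within the 20 adult libraries the lists differed. miR-26a-5p was most like miR-26b-5p (r = 0.910), miR-148b-3p (0.869), let-7b-5p (0.859), miR-22-5p (0.845) and let-7c-5p (0.840), with a median of 0.324. miR-26b-5p was most like miR-152-3p (0.955), miR-148b-3p (0.934), let-7b-5p (0.929), let-7c-5p (0.922) and miR-26a-5p (0.910), with a median of 0.386. miR-152-3p and miR-148b-3p went the other way from the members early in life, with log2 fold changes of -1.14 ± 0.16 and -0.40 ± 0.15 (SE) at 6 weeks against 1 week (edgeR adjusted p = 6.55e-07 and 0.0210). All these values share library, depth and scaling, and are descriptions.

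The passenger arms, the opposite strands of the same hairpins, had few counts. They were still found in most libraries, miR-26a-1-3p in 21 of 25 and miR-26a-2-3p and miR-26b-3p in 24 each. miR-26a-1-3p had 100 counts over the 25 libraries, miR-26a-2-3p had 152 and miR-26b-3p had 188, against 352664 for miR-26a-5p and 1409812 for miR-26b-5p. The passenger share was thus 0.0714% for miR-26a (95% exact binomial interval 0.0629 to 0.0808%) and 0.0133% for miR-26b (0.0115 to 0.0154%), and the intervals cover counting error only. Only miR-26a-2-3p passed the filter, and its log2 fold change of 0.14 ± 0.77 at 6 weeks against 1 week did not pass the test (edgeR adjusted p = 0.872). This arm is specific to Mir26a-2 while the guide is not, but at 0 to 22 counts per library a change as large as that of the guide was not detectable at this depth.

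Other miRNAs reported as repressed by MYC were set beside the family, in a list chosen with earlier results of these data known. MYC itself is not measured by miRNA counts, and its part in the miR-26 result was not tested. Of the 19 in this list, all tested, 13 rose and 6 did not pass at 6 weeks against 1 week, where 35% of entries were called higher and 36.8% lower, with a median log2 fold change of 1.34, where the median of all entries was 0.12. let-7g-5p, a member of the let-7 family, averaged 11892 CPM at 6 weeks and 1336 CPM at 1 week, a log2 fold change of 3.15 ± 0.19 (SE; edgeR adjusted p = 7.7e-13). miR-29b-3p, a repressor of collagen genes, averaged 1119 CPM at 6 weeks and 75.6 CPM at 1 week, with 3.88 ± 0.27 (edgeR adjusted p = 8.67e-12). miR-30a-5p, of a family abundant in epithelial tissues, had 1.37 ± 0.11 (edgeR adjusted p = 9.78e-11), close to the value of miR-26a-5p. Those that rose included members of the let-7, miR-29 and miR-30 families, so the 13 are not independent results. Of these, miR-29a-3p and miR-29c-3p had nearly equal counts and a log2 fold change of 3.58 each. The 6 that did not pass were miR-15a-5p, miR-16-5p, miR-34a-5p, miR-146a-5p, miR-150-5p and miR-497a-5p, with log2 fold changes of -0.85 to 0.56. With library totals alone 12 were called higher and 3 lower (miR-16-5p, miR-146a-5p and miR-497a-5p). That setting called 88 of 391 entries higher and 178 lower. The DESeq2 test also called 12 of the list higher and 3 lower, where 110 of 391 entries were called higher and 166 lower.

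Of the same 19, 3 rose and 16 did not pass at 14 months against 6 weeks, where 3.32% of entries were called higher and 0.512% lower. Their median log2 fold change was 0.43, that of all entries -0.038. The 3 were miR-29a-3p (1.44 ± 0.30, edgeR adjusted p = 0.00443), miR-29b-3p (1.82 ± 0.25, adjusted p = 2.09e-05) and miR-29c-3p (1.44 ± 0.30, adjusted p = 0.00443). The counts of miR-29a-3p and miR-29c-3p were nearly equal in every library, so these are not independent results.

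In the miR-17-92 cluster, which MYC induces, 2 of 6 tested guide arms rose and 2 fell at 6 weeks against 1 week, with a median log2 fold change of -0.0066. These counts are near the 35% of entries called higher and the 36.8% called lower. miR-18a-5p averaged 6.84 CPM at 6 weeks and 25.2 CPM at 1 week, a log2 fold change of -1.93 ± 0.30 (SE; edgeR adjusted p = 3.72e-06), and miR-17-5p had -0.60 ± 0.24 (edgeR adjusted p = 0.0274). The value of miR-18a-5p at 6 weeks rests on 33 counts summed over the libraries of that age, against 693 at 1 week. miR-19a-3p and miR-19b-3p, whose counts were also nearly equal, had 0.99 ± 0.22 each (edgeR adjusted p = 0.000321 and 0.000332), and neither rise was called with library totals alone. None of the 6 passed edgeR's or DESeq2's threshold at 14 months against 6 weeks, with edgeR adjusted p of 0.520 to 0.907.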

How the data were processed

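The authors deposited 1 table of raw counts per mature miRNA, whole numbers with no normalisation, for 25 libraries of liver vesicles. The labels name the QIAseq miRNA library kit and paired-end NovaSeq sequencing. Bowtie, edgeR and mm10 appear in the submitters' processing notes, without versions. Whether counts are reads or unique molecular identifiers, and which miRNA annotation was used, is not given in the sources used here, so intervals cover counting error only. Of the 1493 entries, 398 carry no miRNA name ("unconservative") and hold 0.0836% of counts.

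The counts were analysed with edgeR 4.0.16 in R 4.3.3: filterByExpr (391 entries tested), TMM factors, a robust quasi-likelihood fit of all 25 libraries, an F test over 5 ages and 10 pairwise contrasts, each with Benjamini-Hochberg adjustment over all entries tested at 0.05. The biological coefficient of variation was 37.6%. The fit was tested on simulated data. The SE of a log2 fold change is its size over the square root of F. Exact two-sided permutation tests (scipy 1.17.1) were used for family shares and the log2 ratio of the members, each adjusted over 5 comparisons, and 4 correlations used 100000 resamples. Likeness was Pearson's r of log2 CPM with a pseudocount of 0.5. Among 50 pairs of libraries of the same age none was identical (smallest chi-squared per degree of freedom 12.1). Sequences are from RefSeq for GRCm38.p6 (mm10) and gene positions from GENCODE M21.

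The members and lists were chosen with earlier results of these data known. Named were the members, their passenger arms, the lists of miRNAs repressed or induced by MYC, the 5 most abundant miRNAs and the 5 miRNAs most like each member. Alternatives were other scalings, filters, DESeq2 1.42.0, a depth covariate, subsets of ages and each library left out. The alternatives added after seeing the data left out the deepest and the 2 shallowest libraries, or used the 20 adult libraries alone, with or without the covariate.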

Additional observations from a re-analysis of the deposited data

Results flagged for a closer look

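In 20 groups of 5 libraries (4 measures of the family at 5 ages), 2 values stood apart from the other 4 by Dixon's criterion at the 95% level, which flags about 1 group in 20 by chance. At 6 weeks mouse 10 had 3.81% of its counts in the family, where the other mice had 3.01 to 3.18%, and its library was the deepest of that age at 1738208 counts. At 6 months mouse 13 had 2.73%, where the other mice had 3.59 to 3.88%, and its library was the shallowest of that age at 1052751 counts. The part of depth in either value was not tested.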

How the results depend on the processing

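No paired analysis was possible because no mouse number occurs at more than 1 age. Leaving out single libraries kept the direction and the call of both members in the F test and in every contrast against 1 week.

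For miR-26b-5p, the filter at 50 CPM ended the calls of the F test (F = 2.94), of 6 weeks against 1 week (0.13) and of 6 months against 1 week (log2 fold change 0.31, adjusted p = 0.0690), and library totals alone that of 6 weeks against 1 week (0.20). At 14 months against 6 weeks, the compared ages alone gave 0.39 for miR-26a-5p and 0.45 for miR-26b-5p, both past the threshold, as was miR-26b-5p without a filter (0.66, adjusted p = 0.0391). The range of miR-26b-5p with 1 library left out was 0.47 to 0.63, and it passed without mouse 13 (0.54, adjusted p = 0.0362) and without mouse 22 (0.61, adjusted p = 0.0476). At 12 months against 6 weeks miR-26b-5p passed with the compared ages alone (0.39, adjusted p = 0.0430) and with the adult libraries alone (0.49, adjusted p = 0.0293). With miR-122-5p left out of the total, the family share at 14 months was higher than at 6 weeks by 1.49 percentage points (adjusted p = 0.0397).

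The log2 ratio at 6 weeks against 1 week was 0.55 as a difference of medians (adjusted p = 0.238) and 0.55 to 0.64 with 1 library left out.

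Values that changed sign were all outside the threshold. At 12 months against 6 months miR-26a-5p was -0.016 with the filter at 50 CPM, -0.022 with the covariate and -0.046 to 0.31 with 1 library left out. For 14 months against 12 months it was -0.0045 with upper-quartile factors. There miR-26b-5p was -0.037 with library totals, -0.080 with upper-quartile factors, -0.015 in adult libraries alone, -0.093 with the covariate added and -0.067 to 0.17 with 1 library left out. Between 14 and 6 months it was -0.0024 in adult libraries with the covariate. The family share difference at 14 months against 12 months was 0.397 without miR-122-5p and -0.181 to 0.091 with 1 library left out. The log2 ratio at 14 months against 6 weeks was -0.12 to 0.018 with 1 library left out. The cause of these changes was not tested.

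The number of entries called at 14 months against 6 weeks was 15, but 4 to 28 under other settings and 8 without mouse 23, 24 or 25. It was 7 at 6 months against 6 weeks (1 to 18 otherwise) and 22 at 12 months against 6 weeks (8 to 54 otherwise, 37 without mouse 27). The filter at 50 CPM lowered the 281 calls of 6 weeks against 1 week to 116, with fewer entries tested. In the comparison of patterns, 141 entries had a mean of at least 50 CPM. The lower count is thus no sign of a smaller share called. Of the miR-17-92 arms, 0 rose and 3 fell by DESeq2 in that contrast, where DESeq2 called 110 of 391 entries higher and 166 lower.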
